A study of Homo sapiens with 12 samples.

Results

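Hypoxia-inducible factors (HIFs) are transcription factors that switch on genes of angiogenesis, acid-base balance, collagen processing and mitophagy when oxygen is low. A set of 32 target genes outside glycolysis was followed here by gene name, and all 32 were found among the 58735 genes of the deposited count table. The cells were 786-O, a long-established human cell line from a clear cell carcinoma of the kidney. They carried either a lentiviral vector for re-expression of BBOX1, the last enzyme of carnitine synthesis, or an empty vector, and both kinds had been kept under a selecting drug. Each kind was grown in culture or as xenografts in NOD SCID gamma mice that were 6 to 8 weeks old, a strain without mature lymphocytes, which gave 4 groups of 3 libraries of polyadenylated RNA. The series title sets BBOX1 against signalling by TBK1 and mTORC1. The labels speak of triplicates but do not say that these were separate cultures or animals, or whether the line with BBOX1 was 1 clone, so the p-values speak of the spread among these libraries, which may be technical.

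A HIF is a pair of an oxygen-regulated alpha subunit, HIF-1alpha (gene HIF1A) or HIF-2alpha (EPAS1), and a constant partner, ARNT. In normal oxygen the VHL protein marks the alpha subunits for destruction. Clear cell carcinomas commonly lose VHL, and 786-O cells have a truncated VHL and depend on HIF-2alpha, so part of the target programme is on in these cells even in a dish with ample oxygen. CA9 and BNIP3 are textbook HIF-1 targets, and VEGFA and CCND1 are known as HIF-2 targets in this carcinoma.

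The libraries held 13729031 to 26758712 counts. Levels are given as CPM, the counts of a gene per 1e6 counts of its library, with library sizes scaled by TMM factors over all 12 libraries, and fold changes come from the quasi-likelihood test of edgeR with adjustment over all tested genes; a gene is called higher or lower at an adjusted p under 0.05. BBOX1 itself was at 1079, 1096 and 1067 CPM in cultured BBOX1 cells and had no count in the 3 empty-vector cultures. In xenografts it was at 1272, 1373 and 1896 CPM with the vector for BBOX1 and between 0.327 and 0.827 CPM without, so every library matched its label. Replicates of a culture group differed little beyond counting noise, with a chi-square per degree of freedom of 1.89 to 2.71, against 11.9 to 15.2 among empty-vector xenografts. One library stood apart. BBOX1 xenograft replicate 1 was at 42.4 against each of its group mates, which were at 8.89 against each other. All 9 markers of the carcinoma line were detected in every group, with VIM, CDH6 and PAX8 at the highest levels. CA9, 1 of the 9, is also 1 of the 32 targets. It averaged only 0.880 CPM in empty-vector cultures and 0.699 CPM in BBOX1 cultures. Endothelial markers summed to 0.252 to 2.53 CPM over all libraries, with CDH5 at 0 and PECAM1, ROBO4 and TEK leading in xenografts. PECAM1 was also present in empty-vector cultures, at 0.841 CPM on average against 1.01 CPM in empty-vector xenografts. With BBOX1 it averaged 0.0124 CPM in culture and 0.227 CPM in xenografts. It was called lower with BBOX1 in culture (log2 fold change -5.21, SE 0.83, edgeR adjusted p = 2.02e-05) and was not tested in xenografts. Macrophage markers summed to 2.22 to 4.96 CPM, led by CSF1R, ITGAM and ADGRE1, with CD163, TYROBP and AIF1 at 0. Erythroid markers, led by ALAS2, did not exceed 0.768 CPM. The 9 fibroblast and pericyte markers summed to 12.3 to 15.8 CPM in culture and 263 to 452 CPM in xenografts. Most of the xenograft sum came from COL1A1 and COL3A1, which averaged 190 and 116 CPM in empty-vector xenografts. Not every marker of the list rose. COL1A1, COL3A1, RGS5 and LUM led this list, COL1A2 was at 0 in culture, and DCN was at 0 in empty-vector xenografts. The part of all these markers in the results below was not tested. The lists hold human genes, and how far they would show mouse cells of the host was not tested either. In such bulk RNA, fewer cells of a type and less RNA per cell cannot be told apart.

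**Figure D1:**
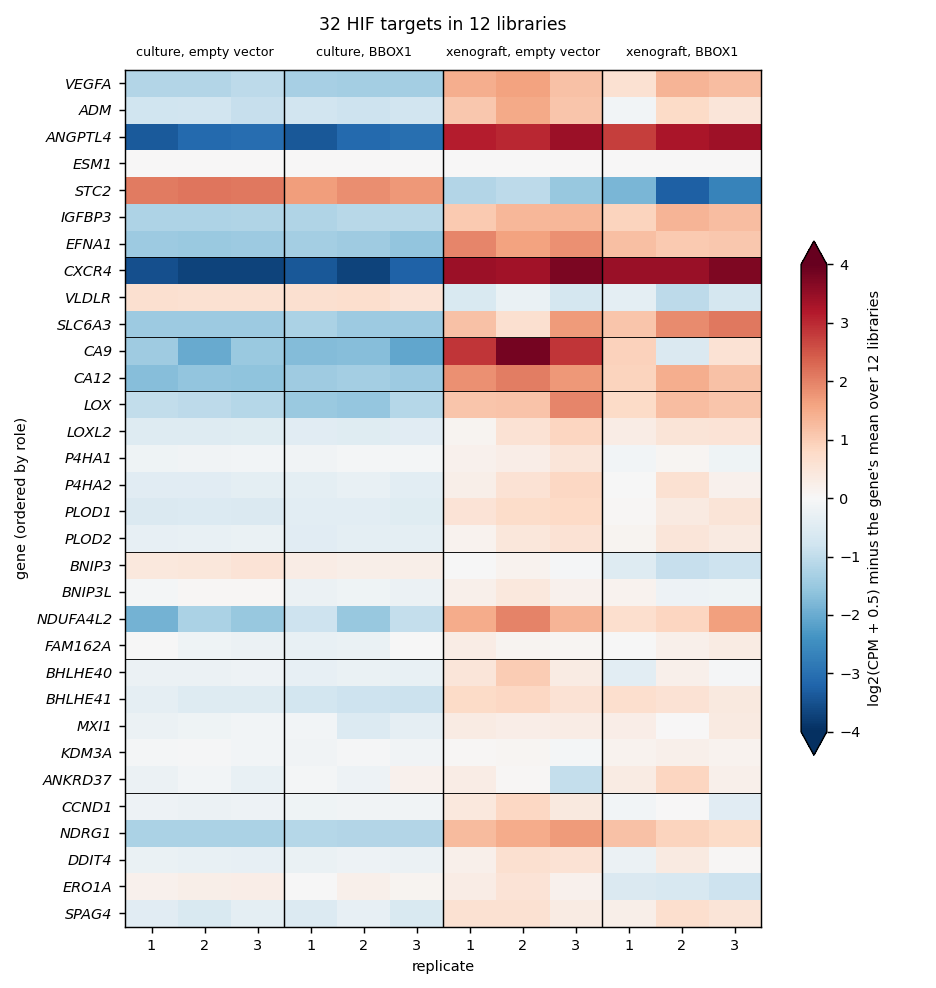
Level of 32 HIF targets (rows, ordered by role, with lines between roles) in 12 libraries (columns, 3 per group), as log2(CPM + 0.5) minus the gene's own mean over the 12 libraries; ESM1 had no count in any library. Most rows change at the line between culture and xenograft, while STC2, VLDLR and BNIP3 run the other way, and CA9 is highest in the 3 empty-vector xenografts.

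Of the subunits and regulators of the pathway, the transcripts of EPAS1, ARNT and VHL were not called with BBOX1 in either setting. EPAS1 ranged from 225 to 244 CPM over the 6 cultures. In xenografts it was at 214, 264 and 277 CPM with the empty vector and at 204, 181 and 158 CPM with BBOX1, groups that did not overlap but did not pass (log2 fold change -0.47, SE 0.14, edgeR adjusted p = 0.0752). EPAS1 was called lower there without BBOX1 xenograft replicate 1 (log2 -0.57, adjusted p = 0.00704), and also with DESeq2, with no filter on low counts and in 1 fit of all 12 libraries. HIF1A was lower with BBOX1 in both settings. It was at 74.4, 71.3 and 76.1 CPM in empty-vector cultures against 49.4, 51.0 and 48.6 CPM with BBOX1 (log2 -0.58, SE 0.05, adjusted p = 2.88e-11). In xenografts it was at 67.3, 81.1 and 48.7 CPM against 37.9, 10.8 and 19.2 CPM (log2 -1.53, SE 0.35, adjusted p = 0.0343), a call that was lost when any 1 xenograft other than BBOX1 replicate 1 was left out (highest adjusted p 0.153). The difference between these 2 effects did not pass (log2 -0.96, SE 0.40, adjusted p = 0.159), but it passed without BBOX1 xenograft replicate 1 (log2 -1.57, adjusted p = 0.000232). HIF1A lies on chromosome 14, and so does the target ERO1A. With BBOX1, 35.3% of the 464 tested genes of that chromosome were called lower in culture and 13.6% of 500 in xenografts, against 6.98% and 3.31% of genes elsewhere. Their median log2 fold change was -0.175 in culture and -0.285 in xenografts, against 0.0035 and 0.0236 for genes elsewhere. What part the position on chromosome 14 has in the values of these 2 genes was not tested. These are RNA levels, and neither the protein nor the activity of HIF-1alpha or HIF-2alpha was measured here. Whether HIF1A RNA bears on the targets described below was not tested.

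In xenografts BBOX1 went with lower levels of HIF targets. Of 31 tested targets 8 were called lower and 0 higher, against 3.63% and 1.91% of all 16126 tested genes (5.54% in either direction), and the median log2 fold change was -0.33 over the targets and 0.02 over all genes. By role, both carbonic anhydrases fell, as did 3 of 6 tested secreted factors and ligands, 2 of 5 genes of cell cycle, stress and secretion, and 1 of 4 mitochondrial genes. None of the 6 collagen and matrix enzymes, the 3 receptors and transporters or the 5 transcription and chromatin regulators passed. DESeq2 called 10 targets lower and 0 higher in the same libraries. In these libraries LUM, the lumican gene, was the 1 of 5 tested fibroblast and pericyte markers called lower with BBOX1, at 0.755 to 3.90 CPM against 16.4 to 30.9 CPM (log2 -3.00, SE 0.43, adjusted p = 0.00372), and 0 were called higher. The 9 markers of that list summed to 277 to 389 CPM with BBOX1 and 263 to 452 CPM without, and their part in the fall of the targets was not tested.

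CA9, a membrane carbonic anhydrase that acidifies the space around hypoxic tumour cells, had the largest fall of the 31 tested. It was at 30.2, 59.8 and 30.6 CPM in empty-vector xenografts and at 7.49, 2.33 and 5.82 CPM with BBOX1. Every library with BBOX1 was below every library without it, by 7.68-fold in the fit (log2 -2.94, SE 0.37, edgeR adjusted p = 0.00177). A stretch of 38.5% of the CA9 exon length overlaps ARHGEF39 on the other strand, and the library kit does not mark strand. ARHGEF39 itself was not called, at 13.2 CPM on average without and 11.1 CPM with BBOX1. The related CA12, which works at the cell surface in the same way, was at 1650, 1937 and 1553 CPM without BBOX1 and at 866, 1271 and 1054 CPM with it. The groups did not overlap (log2 -0.68, SE 0.17, adjusted p = 0.0408).

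ERO1A, which oxidises disulphide-forming enzymes in the endoplasmic reticulum, was at 110, 132 and 102 CPM without BBOX1 and at 60.1, 57.7 and 50.2 CPM with it. The level with BBOX1 was 2.04-fold lower (log2 -1.03, SE 0.13, adjusted p = 0.00203). CCND1, the cyclin D1 gene that drives entry into the cell cycle, was at 836, 1095 and 817 CPM against 576, 628 and 450 CPM, also without overlap (log2 -0.73, SE 0.17, adjusted p = 0.0333). CCND1 overlaps LTO1 on the other strand over 10.3% of its exon length, and LTO1 was not called in xenografts.

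BNIP3, a receptor of mitophagy, was at 94.6, 106 and 93.5 CPM without BBOX1 and at 66.4, 50.3 and 54.1 CPM with it. No BBOX1 library reached the lowest empty-vector library (log2 -0.78, SE 0.13, adjusted p = 0.00939). The annotation holds 39 pseudogenes named after BNIP3, and the most counted of them, BNIP3P11, held 166 counts over all libraries against 22058 for the gene. Reads shared between the gene and these copies were not measured, so the BNIP3 count is uncertain to that extent. Its paralogue BNIP3L was at 68.8, 79.1 and 67.1 CPM against 65.6, 51.9 and 52.9 CPM. These groups did not overlap either, but the test did not pass (log2 -0.33, SE 0.13, adjusted p = 0.149).

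Among secreted factors and ligands, EFNA1, a membrane ligand of Eph receptors, was at 95.2, 75.4 and 88.9 CPM against 57.4, 50.9 and 51.8 CPM with BBOX1 (log2 -0.69, SE 0.13, adjusted p = 0.0129). ADM, the vasodilator peptide adrenomedullin, was at 228, 305 and 231 CPM against 99.0, 184 and 152 CPM (log2 -0.81, SE 0.21, adjusted p = 0.0478). STC2, a secreted glycoprotein, was at 10.7, 11.8 and 8.39 CPM against 6.66, 2.13 and 3.52 CPM (log2 -1.32, SE 0.34, adjusted p = 0.0494). All 3 had groups that did not overlap. VEGFA, the main angiogenic factor of this carcinoma, was at 3088, 3391 and 2526 CPM against 1688, 2892 and 2613 CPM. Its groups overlapped and it did not pass (log2 -0.32, SE 0.20, adjusted p = 0.355).

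Over all tested targets, 13 had every BBOX1 xenograft below every empty-vector xenograft and 1, the histone demethylase gene KDM3A, had every one above; the same held for 15.4% and 13.9% of all tested genes. Beside the 8 called, the 13 were P4HA1 and PLOD1 of the collagen enzymes, BNIP3L, the repressor gene BHLHE40 and the stress gene NDRG1. BHLHE40 was at 450, 641 and 396 CPM without BBOX1 and at 235, 366 and 305 CPM with it (log2 -0.71, SE 0.20, adjusted p = 0.0657). NDRG1 was at 3586, 4177 and 4816 CPM against 3319, 2712 and 2503 CPM (log2 -0.55, SE 0.17, adjusted p = 0.0772). The other targets are given by their levels. ANGPTL4, which inhibits lipoprotein lipase, ranged from 214 to 330 CPM over the 6 xenografts, and IGFBP3, the carrier of insulin-like growth factors, from 6021 to 8317 CPM. CXCR4, the receptor of the chemokine CXCL12, ranged from 65.5 to 88.0 CPM.

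The calls in xenografts differed in how far they held. CA9 and ERO1A stayed past the threshold under all 11 alternatives, with an adjusted p of at most 0.0168 and 0.0207 when any library was left out. BNIP3 was lost when BBOX1 xenograft replicate 3 or replicate 2 of the empty-vector xenografts was left out (highest adjusted p 0.0679). EFNA1 was lost without the same BBOX1 library and without replicates 1 or 3 of the empty-vector group (highest 0.082). ADM, CCND1 and CA12 were lost without BBOX1 replicate 3 or any 1 empty-vector xenograft (highest 0.206, 0.18 and 0.202). STC2 was lost without any of these libraries or BBOX1 replicate 2 (highest 0.193), so STC2 is the least stable of the 8. The number of targets called lower was thus 2 without BBOX1 replicate 3 and 3 without any one of the empty-vector replicates. Without BBOX1 replicate 1, the library that stood apart, 11 were called lower and 0 higher. They were the same 8 with BNIP3L, BHLHE40 and NDRG1, and CA9 was then at log2 -3.29 (adjusted p = 0.000259).

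**Figure D2:**
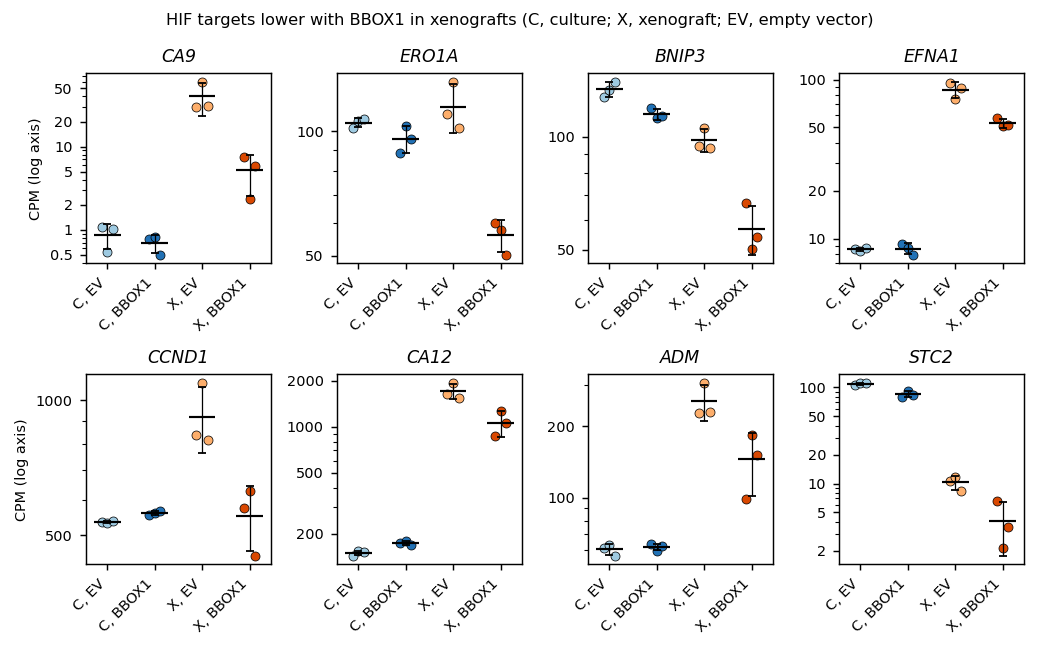
Level (CPM, log axis) of the 8 HIF targets called lower with BBOX1 in xenografts, in cultures (C) and xenografts (X) with empty vector (EV) or BBOX1; points are libraries, horizontal bars the mean and whiskers the SD (n = 3 per group). In each panel the 3 BBOX1 xenografts lie below the 3 empty-vector xenografts, while in culture the 2 vectors differ by far less.

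The promoters of these genes are shown because HIF binds the core ACGTG or GCGTG, the hypoxia response element. The 250 bases before the transcription start were read from RefSeq on GRCh38.p14 for 31 start sites of 24 of the 32 targets. Both cores were searched on both strands; matches are in capitals (CACGT and CACGC are the cores on the other strand, and the palindrome CACGTG holds ACGTG on both strands). CA9, BNIP3, ERO1A and CA12 were lower with BBOX1 in xenografts, and BHLHE41, a circadian repressor, was not called there. The windows are chr9:35673678-35673927 (plus strand) for CA9, chr10:131981924-131982173 (minus) for BNIP3, chr14:52695559-52695808 (minus) for ERO1A, chr15:63381847-63382096 (minus) for CA12 and chr12:26125038-26125287 (minus) for BHLHE41.
CA9: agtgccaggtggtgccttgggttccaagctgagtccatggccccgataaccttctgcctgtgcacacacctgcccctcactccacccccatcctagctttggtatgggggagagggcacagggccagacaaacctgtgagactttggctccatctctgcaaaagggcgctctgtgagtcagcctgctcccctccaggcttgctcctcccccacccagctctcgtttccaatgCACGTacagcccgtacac
BNIP3: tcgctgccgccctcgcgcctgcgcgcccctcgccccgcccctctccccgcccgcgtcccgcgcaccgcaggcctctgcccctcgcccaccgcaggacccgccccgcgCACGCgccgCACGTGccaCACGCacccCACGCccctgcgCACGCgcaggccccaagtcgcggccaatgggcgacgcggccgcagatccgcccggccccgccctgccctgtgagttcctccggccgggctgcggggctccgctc
ERO1A: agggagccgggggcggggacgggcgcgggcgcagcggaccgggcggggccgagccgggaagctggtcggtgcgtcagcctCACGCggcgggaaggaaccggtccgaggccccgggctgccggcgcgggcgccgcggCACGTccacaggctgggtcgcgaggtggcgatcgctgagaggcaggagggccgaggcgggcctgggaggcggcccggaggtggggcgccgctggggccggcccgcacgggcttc
CA12: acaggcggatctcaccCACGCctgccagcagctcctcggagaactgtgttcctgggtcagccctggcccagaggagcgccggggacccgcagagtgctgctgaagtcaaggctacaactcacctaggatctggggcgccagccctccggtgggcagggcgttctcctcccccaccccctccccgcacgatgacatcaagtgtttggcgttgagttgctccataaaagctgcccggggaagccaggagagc
BHLHE41: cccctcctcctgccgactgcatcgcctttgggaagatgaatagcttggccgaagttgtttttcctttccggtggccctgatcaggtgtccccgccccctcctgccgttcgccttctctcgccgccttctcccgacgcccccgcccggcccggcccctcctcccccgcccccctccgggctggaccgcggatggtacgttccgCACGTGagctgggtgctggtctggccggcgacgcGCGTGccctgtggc

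Counting the base before the start as -1, the only core in the CA9 window lies at -18 to -14. BNIP3 holds a cluster of 6 matches between -143 and -100 with a palindrome in it, and BHLHE41 also holds a palindrome, at -48 to -43. Of the 31 windows 28 (90.3%) held either core, against 43.2% of all 35116 promoter windows of the same length. Windows of KDM3A and of LOX overlap and share matches, so the windows are not independent. With only the first window of each gene, 22 of 24 targets held either core, against 11763 of all 27305 genes. ACGTG was in 51.6% of target windows and 18.5% of all, and GCGTG in 71.0% and 32.2%. The target windows were also richer in G and C, with a median of 68.4% against 58.0%, and the shares were not adjusted for that. All 7 targets that fell in xenografts and had a window held at least 1 core, and so did most that did not fall. The genes were listed as HIF targets and HIF binds these cores, so the higher share among them is not independent evidence. The matches are a description of letters, not of binding.

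In culture the same BBOX1 cells showed changes in both directions and of small size. Of 28 tested targets 4 were called higher and 7 lower, against 8.53% and 7.86% of all 14960 tested genes (16.4% in either direction), and the median log2 fold change was -0.02 over the targets and -0.00 over all genes. STC2, BHLHE41, BNIP3L, VEGFA, BNIP3, ERO1A and the collagen lysyl hydroxylase PLOD2 fell. CA12, PLOD1, NDRG1 and IGFBP3 rose. The groups did not overlap for 6 targets that were higher and 7 that were lower with BBOX1, as for 15.9% and 15.1% of all tested genes.

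STC2 was at 107, 111 and 110 CPM with the empty vector and at 80.4, 91.3 and 84.0 CPM with BBOX1, which was the largest fall among those called (log2 -0.37, SE 0.04, edgeR adjusted p = 7.41e-08). BHLHE41 was at 56.7, 50.9 and 51.7 CPM against 43.5, 40.7 and 40.2 CPM (log2 -0.35, SE 0.06, adjusted p = 1.58e-05). VEGFA was at 500, 494 and 536 CPM against 440, 436 and 439 CPM (log2 -0.22, SE 0.03, adjusted p = 1.62e-07). In these 3 genes no BBOX1 culture reached the lowest empty-vector culture. The pair of mitophagy receptors fell by like amounts, BNIP3 from 134 ± 6.09 to 115 ± 3.85 CPM (SD, n = 3; log2 -0.22, SE 0.04) and BNIP3L by 0.23 on the log2 scale (SE 0.05). CA12 was at 144, 154 and 151 CPM with the empty vector and at 173, 179 and 168 CPM with BBOX1. It had the largest rise among those called (log2 0.21, SE 0.03, adjusted p = 1.65e-05). PLOD1 rose by 0.13, NDRG1 by 0.10 and IGFBP3 by 0.07 on the log2 scale.

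CA9 was near the bottom of the range in culture, at 1.07, 0.540 and 1.03 CPM with the empty vector and 0.779, 0.814 and 0.504 CPM with BBOX1, and was not called. ESM1, an endothelial secreted proteoglycan gene, had no count in any of the 12 libraries, which allows at most 0.111 to 0.206 CPM per library (3 counts). It was tested nowhere, and CXCR4, the dopamine transporter gene SLC6A3 and NDUFA4L2 had too few counts to be tested in culture. None of the 11 calls in culture reached a fold of 2, and none was made when all 12 libraries shared 1 estimate of spread. IGFBP3 was also lost when BBOX1 culture 2 or 3 or empty-vector culture 2 was left out (highest adjusted p 0.2). ERO1A averaged 105 CPM in empty-vector cultures and 95.9 CPM in BBOX1 cultures. Its call was lost without BBOX1 culture 1 or empty-vector culture 2 or 3 (highest adjusted p 0.307).

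**Figure D3:**
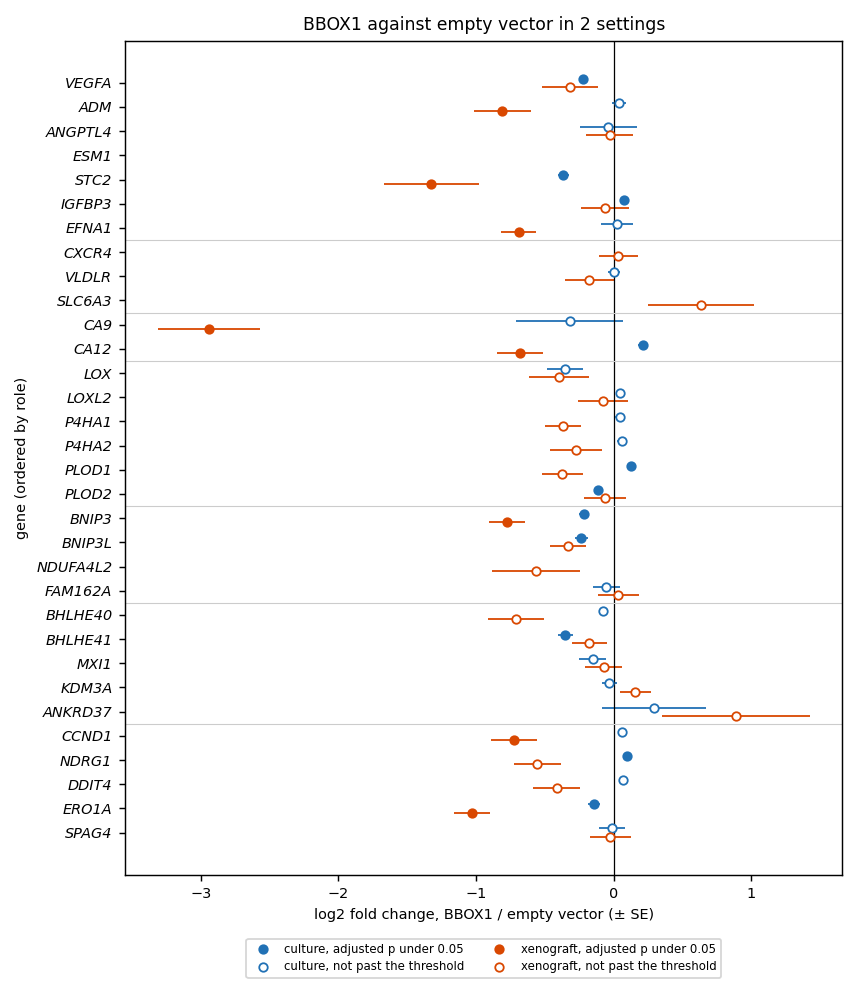
Log2 fold change with BBOX1 (x axis, ± SE) for each HIF target (y axis, ordered by role) in culture (blue) and in xenografts (orange); filled circles are past an adjusted p of 0.05. The culture values lie close to 0, between -0.37 and 0.29, and those of CA9, ERO1A, STC2 and other targets lie further to the left in xenografts; ESM1 was not tested, nor were CXCR4, SLC6A3 and NDUFA4L2 in culture.

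The 2 effects of BBOX1 were then set against each other in 1 fit of all 12 libraries. For 7 of 31 tested targets the effect was more negative in xenografts, and for 0 it was more positive, against 3.26% and 1.93% of all 16927 tested genes (5.19% in either direction); the median difference was -0.42 on the log2 scale over the targets and -0.00 over all genes. CA12 changed direction, with a rise in culture and a fall in xenografts, and the difference was -0.90 (SE 0.17, edgeR adjusted p = 0.00902). ERO1A had a difference of -0.90 (SE 0.14, adjusted p = 0.00341). Both passed under all 16 alternatives. CA9 differed by -2.63 (SE 0.69, adjusted p = 0.0409), CCND1 by -0.80 (SE 0.17, adjusted p = 0.0182), EFNA1 by -0.72 (SE 0.15, adjusted p = 0.0152), NDRG1 by -0.66 (SE 0.16, adjusted p = 0.03) and BNIP3 by -0.57 (SE 0.14, adjusted p = 0.0286). EFNA1 did not pass when BBOX1 culture 1 or empty-vector culture 2 was left out (highest adjusted p 0.0611), and CCND1, CA9, BNIP3 and NDRG1 did not pass without any 1 of the 6 cultures (highest 0.0555, 0.133, 0.0885 and 0.0814 over all libraries left out). CA9, BNIP3 and NDRG1 were also lost without BBOX1 xenograft replicate 3 or empty-vector xenograft replicate 2, and NDRG1 without empty-vector xenograft replicate 3. The count was 2 or 3 without any 1 culture and 4 without empty-vector xenograft replicate 2. It was 11 without BBOX1 xenograft replicate 2 or empty-vector xenograft replicate 1, and 12 without BBOX1 xenograft replicate 1. For STC2, called lower in both settings, the difference did not pass (log2 -0.97, SE 0.31, adjusted p = 0.0776), but it passed without BBOX1 xenograft replicate 1 (log2 -1.51, adjusted p = 9.88e-05) and with DESeq2 or no filter on low counts. VEGFA, called in culture alone, had a difference of -0.11 (SE 0.22, adjusted p = 0.815), which leaves its 2 effects not shown to differ.

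Growth as a xenograft went with much larger changes in the targets than BBOX1 did. Xenografts also hold mouse cells, and the sources used here do not say whether mouse reads were removed. What part such reads have in the xenograft counts was not tested. With the empty vector 25 of 31 tested targets were higher in xenografts than in culture and 3 were lower, against 35.5% and 33.1% of all 15914 tested genes (68.6% in either direction). The median log2 fold change was 1.03 over the targets and 0.04 over all genes. All 6 collagen and matrix enzymes, both carbonic anhydrases and 5 of 6 tested secreted factors rose. The groups did not overlap for 25 targets that were higher and 3 that were lower, as for 36.9% and 36.3% of all tested genes. With BBOX1 21 targets were higher and 4 lower, against 36.1% and 32.1% of all 15906 tested genes (68.2% in either direction), with a median of 0.79 over the targets and 0.07 over all genes. With BBOX1 the groups did not overlap for 22 that were higher and 4 that were lower, as for 37.8% and 36.3% of tested genes. Both vectors' comparisons use libraries that also stand in the BBOX1 comparisons. In each of them cultures and xenografts were fitted together and given 1 spread per gene, although xenograft replicates differed far more. Without BBOX1 xenograft replicate 1 the numbers called higher and lower with BBOX1 were 23 and 4.

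The largest rises came from targets that were close to silent in the dish. CXCR4 had 1 count in all 3 empty-vector cultures together and 3731 in the 3 xenografts, a ratio of 4148 after scaling (exact 95% interval 744 to 163863, counting error only). SLC6A3 had 0 counts in empty-vector cultures and 136 in xenografts, at least 50.4-fold higher against 3 counts over the whole group as the floor; with BBOX1 it had 2 and 190 counts, a ratio of 130 (35.5 to 1081). Both medians above stay the same with these ratios in place of fitted values. They could not move, because the fitted values and the ratios all lie above the medians. ANGPTL4 was at 2.56, 3.12 and 3.30 CPM in empty-vector cultures and at 276, 253 and 330 CPM in xenografts, 95.5-fold higher (log2 6.58, SE 0.13, edgeR adjusted p = 3.77e-12). With BBOX1 the rise of ANGPTL4 was 96.4-fold. CA9 rose 45.2-fold with the empty vector (log2 5.50, SE 0.34) and 7.37-fold with BBOX1 (log2 2.88, SE 0.45). NDUFA4L2, a mitochondrial protein abundant in clear cell carcinoma, was at 0.0596, 0.360 and 0.223 CPM in empty-vector cultures and at 5.34, 7.70 and 4.78 CPM in xenografts (log2 4.76, SE 0.41).

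More abundant targets also rose. VEGFA went from 510 ± 22.9 to 3002 ± 439 CPM with the empty vector (SD, n = 3; log2 2.57, SE 0.10) and from 438 ± 2.29 to 2398 ± 630 CPM with BBOX1 (log2 2.47, SE 0.19). CA12 rose 11.6-fold and 6.21-fold, EFNA1 10.2-fold and 6.22-fold, NDRG1 6.88-fold and 4.37-fold, and ADM 4.25-fold and 2.37-fold, with the empty vector and with BBOX1. IGFBP3 rose 5.55-fold and 5.04-fold. CCND1, BHLHE40, the mTORC1 inhibitor gene DDIT4, P4HA1 and BNIP3L were called higher with the empty vector and not with BBOX1, and of these 5 CCND1 passed the test of the difference above. Without BBOX1 xenograft replicate 1, BHLHE40 (log2 0.33, adjusted p = 0.000897) and DDIT4 (log2 0.39, adjusted p = 0.000623) were called higher with BBOX1 as well. Without that library the difference also passed for BHLHE40 (log2 -0.51, adjusted p = 0.0483) and P4HA1 (log2 -0.41, adjusted p = 0.018), and for DDIT4 it passed without BBOX1 xenograft replicate 2 or empty-vector xenograft replicate 1. With the empty vector the genes of collagen processing rose on the log2 scale by 0.47 (prolyl hydroxylase P4HA1) to 2.60 (lysyl oxidase LOX). The other members of this role were PLOD2 at 0.71, P4HA2 at 1.01, LOXL2 at 1.06 and PLOD1 at 1.28. In the same libraries 5 of 6 tested fibroblast and pericyte markers were called higher and 1 lower, against 35.5% and 33.1% of all genes. Of the regulators, BHLHE41 rose by 1.22 and the MYC antagonist MXI1 by 0.49; SPAG4, a nuclear envelope protein gene, rose by 1.03 and FAM162A by 0.33. The call for BNIP3L was lost without empty-vector culture 1 (adjusted p = 0.062), and that for FAM162A without empty-vector culture 2 or 3 or xenograft 1 (highest 0.0895).

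A few targets went the other way, 3 with the empty vector and 4 with BBOX1. STC2 was at 107 to 111 CPM in empty-vector cultures and at 8.39 to 11.8 CPM in xenografts, 10.5-fold lower (log2 -3.39, SE 0.10, adjusted p = 6.02e-11), and 20.5-fold lower with BBOX1. VLDLR, the receptor of very low density lipoprotein, was at 71.5, 69.8 and 70.3 CPM against 29.8, 37.7 and 27.6 CPM (log2 -1.14, SE 0.10). BNIP3 fell by 0.43 with the empty vector and by 0.99 with BBOX1 on the log2 scale. ERO1A was the fourth that fell with BBOX1 (log2 -0.76, SE 0.10, adjusted p = 0.000198), and it was not called with the empty vector. KDM3A rose by 0.29 with BBOX1, a call lost without any 1 of the BBOX1 cultures (highest adjusted p 0.0913). FAM162A with BBOX1 was lost without culture 1 or 2 or xenograft 2 or 3 of that vector (highest 0.119). ANKRD37, an ankyrin repeat gene, stayed between 0.236 and 2.13 CPM in all 12 libraries and was called in no comparison. A share of 35.2% of its exon length overlaps UFSP2 on the other strand.

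**Figure D4:**
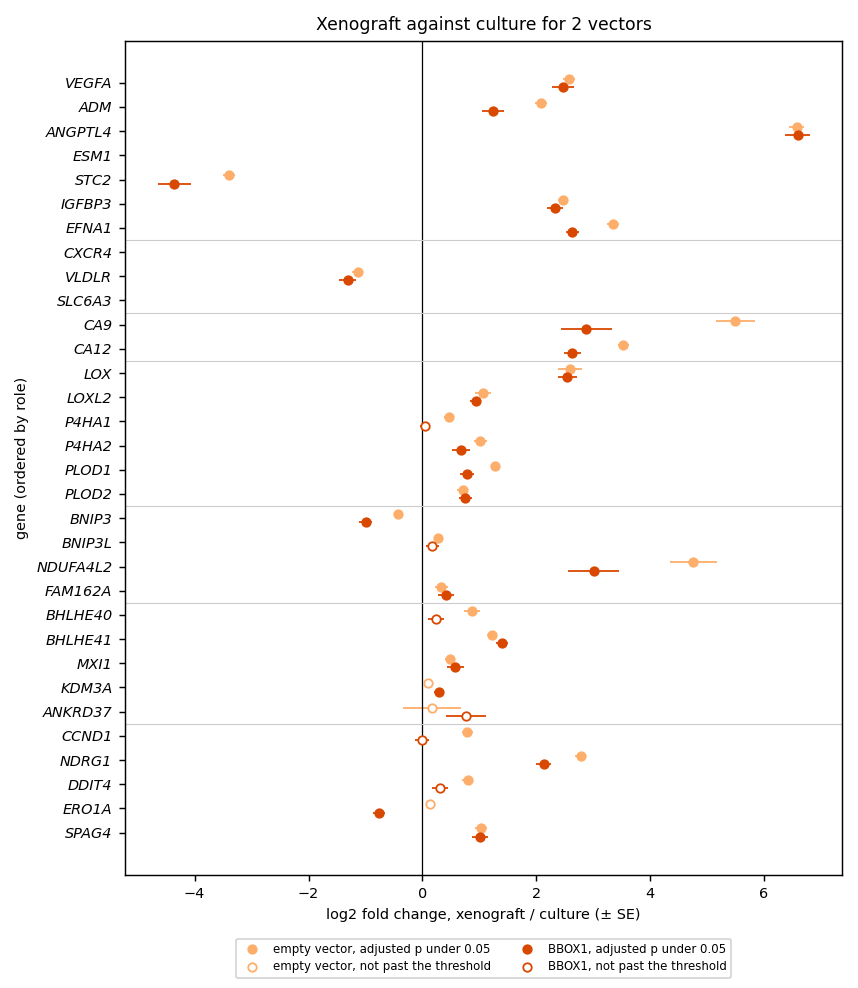
Log2 fold change of xenograft against culture (x axis, ± SE) for each HIF target (y axis, ordered by role) with the empty vector (light) and with BBOX1 (dark); filled circles are past an adjusted p of 0.05. ANGPTL4 and CA9 with the empty vector lie furthest to the right and STC2 furthest to the left; CXCR4 and SLC6A3, near 0 counts in culture, and ESM1 are not drawn.

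Per kilobase of exon, the order of the targets' levels changed with the setting. In empty-vector cultures IGFBP3 was highest at 305 CPM per kb, followed by DDIT4 at 125, LOXL2 at 117 and CCND1 at 111 CPM per kb. In empty-vector xenografts IGFBP3 was at 1681 CPM per kb, followed by NDRG1 at 427, LOXL2 at 242 and CA12 at 234 CPM per kb. CA9 moved from 0.527 to 24.1 CPM per kb and STC2 from 17.8 to 1.68 CPM per kb.

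Related lists were counted in the same fits. The shares of all tested genes called lower and higher with BBOX1 were 3.63% and 1.91% in xenografts and 7.86% and 8.53% in culture. The shares called higher and lower in xenografts against culture were 35.5% and 33.1% with the empty vector and 36.1% and 32.1% with BBOX1. Of 21 glycolytic HIF targets 8 fell and 0 rose with BBOX1 in xenografts. They included the glucose transporter SLC2A1 (log2 -0.79, SE 0.14), the pyruvate kinase PKM (log2 -0.61, SE 0.14) and the lactate exporter SLC16A3 (log2 -0.49, SE 0.12). That count rested on single libraries. It was 13 without BBOX1 xenograft 1, 2 without BBOX1 xenograft 2, and 0 or 1 without BBOX1 xenograft 3 or any 1 empty-vector xenograft. In culture 6 of the 21 rose, PFKP and PGAM1 among them at 0.16 and 0.13 on the log2 scale, and 2 fell, HK2 at -0.30 among them, or 1 without BBOX1 culture 1. The difference between settings passed for 9 of the 21, all more negative in xenografts, against 3.26% of all genes; this was 4 without any 1 culture or empty-vector xenograft 2, 6 without BBOX1 xenograft 3 and 14 without BBOX1 xenograft 1. Between settings, 9 glycolytic targets rose and 6 fell with the empty vector, and 3 rose and 14 fell with BBOX1. PGAM1 was at -1.14 and -1.75 and PFKL at 0.81 and 0.89, while SLC2A3 was at 1.39 with the empty vector and HK1 at -0.75 with BBOX1.

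Of 21 tested other HIF targets 2 fell and 0 rose with BBOX1 in xenografts, where 3.63% and 1.91% of all genes did. These were the lipid droplet coat gene PLIN2 (log2 -0.98, SE 0.13) and the heme oxygenase gene HMOX1 (log2 -1.12, SE 0.19), and HMOX1 was lost without BBOX1 xenograft 3 (adjusted p = 0.0535). The count was 6 without BBOX1 xenograft 1 and 5 without BBOX1 xenograft 2. In culture, where 8.53% of all genes rose and 7.86% fell, 6 of 20 rose, among them the amino acid transporter SLC7A5 at 0.37 and TGFA at 0.22, and 3 fell, or 1 without BBOX1 culture 1. For SLC7A5 the effect differed between settings by -0.83 (SE 0.16, adjusted p = 0.0117). Between settings with the empty vector 15 of the 21 rose, led by ceruloplasmin (CP) at 4.39 and HILPDA at 2.76, and 3 fell, led by the transferrin receptor gene TFRC at -3.67. With BBOX1 12 rose, EPO at 6.62 among them, and 4 fell.

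Of 16 tested subunits and regulators, 5 rose and 6 fell between settings with the empty vector, and 4 rose and 8 fell with BBOX1. With 35.5% and 33.1% of all genes rising and falling with the empty vector, and 36.1% and 32.1% with BBOX1, nothing about the regulators is read from these counts. The rises numbered 3 without empty-vector culture 2 or 3 or empty-vector xenograft 3, and 2 without BBOX1 culture 3. The HIF-induced prolyl hydroxylase gene EGLN3 rose by 2.88 and 2.56, CUL2 fell by 1.19 and 1.26, and CREBBP fell by 1.01 and 1.04. With BBOX1 in culture RBX1 rose and HIF1A and EP300 fell, and in xenografts HIF1A alone was called. RBX1 and EP300 lay close to the threshold (adjusted p = 0.0499 and 0.0414). RBX1 was lost without BBOX1 culture 1 or 2 or empty-vector culture 1 or 3 (highest 0.298), and EP300 without any 1 culture other than empty-vector culture 3 (highest 0.154).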

How the data were processed

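Per the labels, polyadenylated RNA of cultured 786-O cells and xenografts was made into paired-end libraries with a kit type that does not mark strand. The table deposited by the authors gives whole-number counts for each gene without normalisation. The submitters' processing notes name fastp, STAR, featureCounts, DESeq2 and build hg38; which step each did, in what version, and whether mouse reads were taken out is not given in the sources used here. Within the table, all 58735 identifiers and names equal those of GENCODE 29. The test was that of edgeR 4.0.16, run in R 4.3.3 (scaling by TMM, filterByExpr with a minimum count of 10, quasi-likelihood F test, Benjamini-Hochberg over all tested genes, threshold 0.05). Each comparison of a pair of groups was fitted on the libraries of that pair alone, and the difference of effects on all 12. The BBOX1 comparisons in culture and in xenografts were thus fitted apart. Those of xenograft against culture held libraries of both settings, with 1 spread per gene for both. Each fit was run on simulated counts with known changes. These were drawn with the same spread per gene in all groups, so they do not test the unlike spreads of cultures and xenografts. SE is the absolute log2 fold change over the square root of F, and is approximate near 0. Per-length levels divide CPM by the exon union. Alternatives were DESeq2 1.42.0, its size factors, no filter, all libraries in 1 fit, a minimum fold of 2, a replicate block, and each library left out. The targets and lists were chosen with earlier results of these data known. Named are all 32 targets, BBOX1, EPAS1, HIF1A, ARNT, VHL, up to 3 called members of smallest p from each related list and comparison, and up to 3 markers of highest level per marker list, of which 1 gene is not reported here; ARHGEF39, LTO1, UFSP2 and the BNIP3 pseudogene were added as overlapping or similar sequences.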

Additional observations from a re-analysis of the deposited data

Results flagged for a closer look

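For 7 HIF targets the effect of BBOX1 differed between xenografts and culture by the test of the difference itself (edgeR, all 12 libraries, adjusted over all genes). On the log2 scale, xenograft minus culture, the difference was -2.63 for CA9, -0.90 for ERO1A, -0.90 for CA12, -0.80 for CCND1, -0.72 for EFNA1, -0.66 for NDRG1 and -0.57 for BNIP3. CA12 and NDRG1 were called higher with BBOX1 in culture. In xenografts CA12 was called lower and NDRG1 was not called. Only CA12 and ERO1A passed the test of the difference under every alternative. The number of targets passing was 2 or 3 without any 1 culture, and up to 12 with a xenograft left out. In the shared fit the much wider spread among xenografts is averaged with that of cultures, so both settings are given 1 spread.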

How the results depend on the processing

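Scaling by size factors moved the all-gene median by at most -0.03 on the log2 scale, and no value of a target called under any setting changed direction. In culture 0 targets were called in either direction with all 12 libraries in 1 fit or with a fold of at least 2, DESeq2 called 4 higher and 6 lower, and leaving out a library gave 3 to 5 higher and 6 to 8 lower. In xenografts 14 were lower with all 12 libraries in 1 fit and 3 with a fold of at least 2, and leaving out a library gave 2 to 11. The difference between settings was called lower for 14 targets with no filter, 12 with DESeq2 and 2 to 12 with a library left out. Between settings with BBOX1, 2 targets were lower with a fold of at least 2 in place of 4. Same-numbered libraries did not deviate together (correlation of deviations -0.083 to 0.037), so the numbers do not pair them. With the replicate block 7 targets were lower in xenografts, 5 in the difference, and 4 higher and 7 lower in culture. Of single targets' values, 996 kept their side of the threshold, 92 lost it and 49 gained it. The targets that passed under no setting often turned sign, 8 of 17 in xenografts. In the related lists no culture call held with all 12 libraries in 1 fit. The 8 glycolytic targets lower in xenografts became 13 with no filter, 15 with all 12 libraries and 2 with the replicate block, and the 2 other targets became 7, 7 and 2. With DESeq2 these were 12 and 4. The SE of a called target was 0.02 to 0.06 in culture and 0.13 to 0.37 in xenografts; ANKRD37, SLC6A3 and NDUFA4L2 rest on few counts.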
